A study of Mus musculus with 12 samples.

Results

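Cells that received FK228 and also overexpressed class I histone deacetylase (HDAC) mutants named YF were compared with cells that received FK228 alone. The labels call the first group HDI+YF and the second HDI, and each has 3 RNA-seq libraries, so that 6 of the 12 libraries of the series enter the comparison. Every gene that passed a filter on low counts was included, which gave 13346 of the 19037 genes in the table. The other 2 groups, cells with YF and no FK228 and control cells with neither, also have 3 libraries each and serve here as the second setting of the YF effect. All libraries come from AML12, an established mouse hepatocyte line derived from a mouse carrying a transgene for human transforming growth factor alpha. Control and HDI libraries are coded GFP in their descriptions, and what that code stands for is left unsaid there. The sources used here state neither doses nor times, nor which HDACs were mutated, nor the promoter or sequence of any construct. Whether the 3 libraries of each group derive from independent cultures is not stated either, so p-values reflect library-to-library spread that could be technical.

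Class I HDACs (HDAC1, HDAC2, HDAC3 and HDAC8) remove acetyl groups from histones and other proteins. HDAC1 and HDAC2 work within the NuRD, Sin3 and CoREST complexes and HDAC3 within NCoR and SMRT complexes, which bring them to genes, so that the proteins have a structural role beside their catalytic one. FK228 (romidepsin) blocks the active site of these enzymes. In the deacetylase field YF usually names the exchange of the catalytic tyrosine for phenylalanine, although the labels do not spell this out. The comparison addresses what the mutant proteins do to RNA levels in cells where the inhibitor is already present.

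The 6 libraries held 23664446 to 26089668 estimated counts each. The first principal component of the 6 libraries held 68.4% of the variance and separated the groups, and the second, with 9.23%, set replicate 1 apart from the other 2 libraries in both groups and in the same direction, at 21.9 against -10.7 and -11.3 for HDI and 9.43 against -4.58 and -4.71 for HDI+YF. Of 12 hepatocyte markers in the table, Alb (albumin) was at 0.0274 CPM on average in the HDI libraries and Apoc3 at 0 in all 6 compared libraries, while Hnf4a and Apob were well detected. CPM values are counts scaled to a common library total after TMM normalisation. Among cholangiocyte and progenitor markers Spp1 averaged 5348 CPM and Krt19 173 CPM in the HDI libraries, while Ggt1, Cftr, Aqp1 and Prom1 averaged 0.995, 0.747, 0.463 and 0.0138 CPM. Some defining genes of either cell type were thus absent or nearly absent in the HDI libraries. Not all were low without FK228, as Ggt1 averaged 17.1 CPM in control and 5.29 CPM with YF alone. Aqp1 averaged 2.3 and 0.721 CPM there. The summed level of the 12 hepatocyte markers was 256 to 323 CPM with FK228 and 175 to 184 CPM with FK228 and YF, most of it Apob, and that of 11 cholangiocyte and progenitor markers was 5848 to 6260 and 4603 to 5410 CPM, most of it Spp1. The corresponding ranges were 33.0 to 39.9 and 61.2 to 69.9 CPM for 14 macrophage and leukocyte markers, most of it Cd68, and 31.9 to 33.2 and 34.0 to 42.3 CPM for 13 stellate and fibroblast markers, most of it Des. The defining macrophage markers Clec4f and Tyrobp and the stellate marker Lrat were at or near 0. Of the tested members of these last lists, 3 of 8 macrophage markers were higher and 2 lower (0 or 1 lower under 5 alternatives). In the stellate list 3 of 5 were higher, while a filter of 5 CPM left 2 members tested and none called. Among all tested genes 26.6% were higher and 26.3% lower. The part of such differences in the results below was not tested.

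YF changed the majority of tested genes in FK228-treated cells, mostly by small amounts. Of 13346 genes, 7063 (52.9%) were called at a Benjamini-Hochberg adjusted p of 0.05 by edgeR's quasi-likelihood test, 3549 (26.6%) higher and 3514 (26.3%) lower. The median absolute log2 fold change of the called genes was 0.432. At least 2-fold changes were called in 564 genes (4.23%) upwards and 264 (1.98%) downwards. The libraries of the groups did not overlap in 8027 genes (60.1%). Most genes named below were picked for large changes among called genes, so the separation of their libraries follows in part from that choice. The 564 genes that rose at least 2-fold were weakly expressed, with a median of 0.654 CPM with FK228 and 2.21 CPM with FK228 and YF, and 332 of them (58.9%) lay below 1 CPM with FK228 alone. A gene silent with FK228 alone could enter the test through the other group, so such a gene was tested only where it was expressed elsewhere. The 264 genes that fell at least 2-fold had a median of 3.41 CPM before and 1.51 CPM after. The median log2 fold change of all tested genes was -0.0034. TMM scaling places the bulk of genes near 0, so a shift common to all genes would not show in this median or in the balance of calls.

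**Figure D1:**
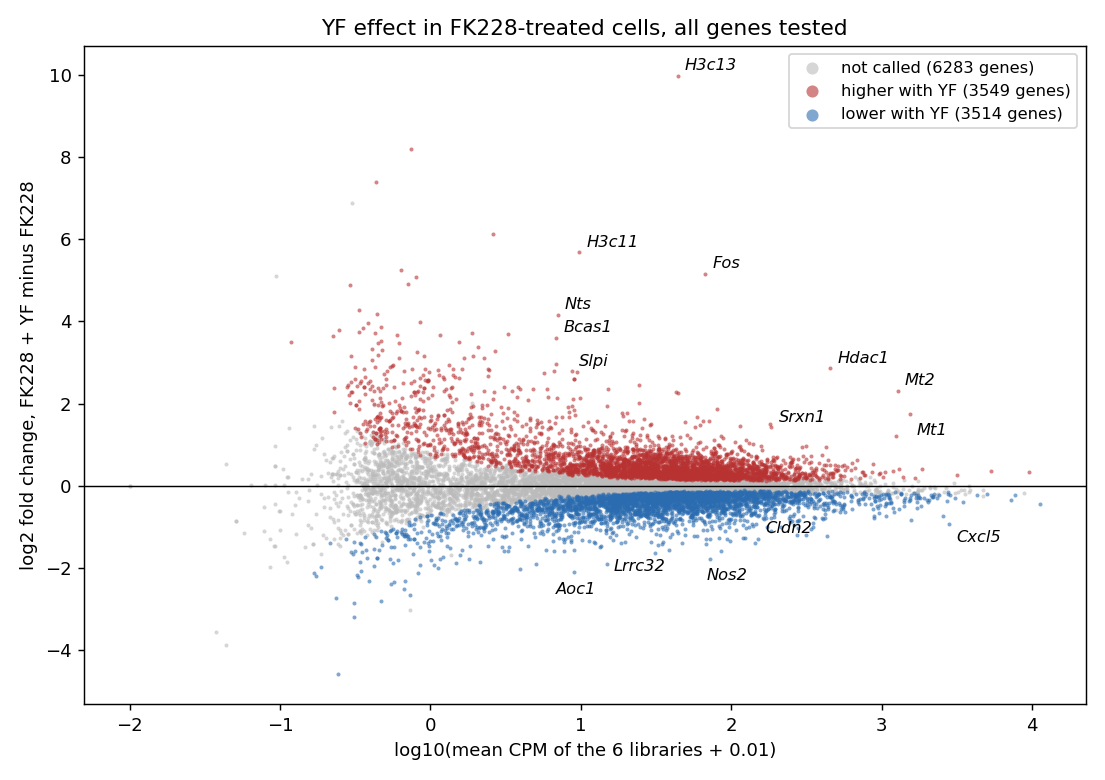
Each point is 1 of 13346 tested genes; the x axis is the log10 mean CPM of the 6 libraries plus 0.01 and the y axis the log2 fold change of FK228 and YF over FK228, with called genes in red (3549 higher) and blue (3514 lower). Increases reach further than decreases, and of the labelled genes H3c13, H3c11 and Fos lie highest and Aoc1 and Lrrc32 lowest.

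All 4 class I HDAC genes were higher with YF, and Hdac1 by far the most. Hdac1 stood at 110.5, 113 and 107 CPM with FK228 and 799, 795 and 798 CPM with FK228 and YF. The 3 libraries with YF lay close together and far above those with FK228 alone, a log2 fold change of 2.86 ± 0.06 (adjusted p = 1.01e-18). Hdac8 stood at 15.1, 17.3 and 17.2 CPM with FK228 and 38.9, 37.8 and 39.3 CPM with FK228 and YF, again without overlap (1.23 ± 0.07). Hdac3, the catalytic subunit of NCoR and SMRT complexes, went from 111, 113 and 116 to 141, 143 and 147 CPM (0.34 ± 0.05). Hdac2, the close paralog of Hdac1, went from 155, 145 and 149 to 189, 175 and 168 CPM (0.25 ± 0.06). Neither of these overlapped between the groups, and their changes were small beside that of Hdac1. On a scale per length, mean TPM, which is normalised for transcript length, with FK228 and with FK228 and YF was 66.4 and 499 for Hdac1, 88.2 and 109 for Hdac2, 67.2 and 88.2 for Hdac3 and 8.08 and 24.7 for Hdac8. Hdac1 thus passed Hdac2 as the most abundant of the 4 transcripts, and Hdac8 remained the least abundant. Without FK228, Hdac1 rose less, from 97.7 ± 5.14 CPM in control to 402 ± 18.9 with YF (n = 3 each), and the difference between the log2 changes was 0.82 ± 0.08 (adjusted p = 4.45e-07). The difference was 0.24 ± 0.07 for Hdac3 (adjusted p = 0.0182) and was not called for Hdac2 (0.14 ± 0.08) or Hdac8 (-0.0028 ± 0.10). Construct reads that match a mouse gene would be counted with it and others would not, so these values do not separate endogenous from introduced transcripts.

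More immediate early genes rose than fell, led by Fos, which encodes a subunit of the AP-1 transcription factor. Of 26 tested genes of this list, 12 were higher and 3 lower, beside 26.6% higher and 26.3% lower among all tested genes, and the list's median log2 fold change was 0.22. Of 19 tested MAP kinase feedback genes, whose products restrain or report that cascade, 10 (52.6%) were higher and 6 (31.6%) lower. The members that fell are not named here, and the lowest log2 fold change in this list was -0.37. Without FK228 12 of these genes were higher and 1 lower, beside 18% and 14.6% of all tested genes. The list's median was 0.30 with FK228 and 0.48 without it. Fos and the phosphatase gene Dusp1 are known to respond to signals through cAMP response elements upstream of their start sites. The 250 bases before each start are shown with every TGACG, the core of that element, in capitals on either strand (RefSeq, GRCm38.p6).
Fos (chr12:85473640-85473889, plus strand): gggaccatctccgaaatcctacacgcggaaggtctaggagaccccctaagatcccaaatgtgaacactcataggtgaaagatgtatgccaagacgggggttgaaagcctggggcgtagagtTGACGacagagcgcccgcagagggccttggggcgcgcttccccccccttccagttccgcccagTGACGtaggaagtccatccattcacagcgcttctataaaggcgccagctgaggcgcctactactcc
Dusp1 (chr17:26508473-26508722, minus strand): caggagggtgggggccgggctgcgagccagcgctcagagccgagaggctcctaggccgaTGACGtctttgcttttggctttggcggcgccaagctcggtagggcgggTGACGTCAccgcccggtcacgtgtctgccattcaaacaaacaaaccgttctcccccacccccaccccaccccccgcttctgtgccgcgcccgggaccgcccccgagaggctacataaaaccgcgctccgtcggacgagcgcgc
The Fos window holds the core at -129 and -66 relative to the start, and the Dusp1 window at -191 and, as the complete palindrome TGACGTCA, at -143. Of all 32851 RefSeq promoter windows of 300 bases, 20.8% hold TGACG and 1.79% hold TGACGTCA on either strand. A match describes the sequence only and shows no binding.

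Fos stood at 3.84, 4.01 and 3.02 CPM with FK228 and 135, 123 and 132 CPM with FK228 and YF. No library with YF came near those with FK228 alone, and the log2 fold change was 5.16 ± 0.10 (adjusted p = 4.23e-19). Dusp1, which dephosphorylates MAP kinases, stood at 11.1, 7.89 and 8.68 CPM with FK228 and 31.4, 30.5 and 32.2 CPM with FK228 and YF (1.76 ± 0.13). Dusp5, a nuclear phosphatase of ERK, went from 9.18, 8.42 and 9.14 to 27.5, 30.1 and 29.5 CPM (1.70 ± 0.09). In both phosphatase genes the groups lay apart by more than the spread within them. Etv5, an ETS factor induced by ERK signalling, rose from 2, 1.17 and 1.53 to 7.3, 7.15 and 9.48 CPM (2.34 ± 0.19), Atf3, a stress-induced bZIP factor, by 1.50 ± 0.07, and the zinc finger factors Egr1 and Egr2 by 1.42 ± 0.24 and 1.67 ± 0.27. Members of the AP-1 family did not move alike. Jun was at 32.4, 32.9 and 32.1 CPM with FK228 and at 35.9, 31.7 and 31.9 with YF as well (0.031 ± 0.07, adjusted p = 0.739), Fosl1 rose by 0.63 ± 0.14, and Junb fell by 0.29 ± 0.07. Myc fell as well (-0.76 ± 0.08), and Zfp36, which encodes an mRNA decay factor, rose from 11.4, 12.7 and 10.7 to 27.1, 27 and 26.9 CPM.

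Metallothioneins, small metal-binding proteins, were among the most abundant transcripts to rise. Mt1 and Mt2 are neighbours on chromosome 8 and are known to be driven by metal response elements. The 250 bases before each start annotated in RefSeq are shown with the core of that element (TGCACNC or TGCGCNC, either strand) in capitals.
Mt1 (chr8:94178839-94179088, plus strand): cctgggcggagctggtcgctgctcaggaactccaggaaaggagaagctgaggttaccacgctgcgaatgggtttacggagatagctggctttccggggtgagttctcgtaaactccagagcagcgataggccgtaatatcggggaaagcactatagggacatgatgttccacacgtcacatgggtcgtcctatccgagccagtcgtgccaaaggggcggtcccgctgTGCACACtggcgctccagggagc
Mt2 (chr8:94172368-94172617, plus strand): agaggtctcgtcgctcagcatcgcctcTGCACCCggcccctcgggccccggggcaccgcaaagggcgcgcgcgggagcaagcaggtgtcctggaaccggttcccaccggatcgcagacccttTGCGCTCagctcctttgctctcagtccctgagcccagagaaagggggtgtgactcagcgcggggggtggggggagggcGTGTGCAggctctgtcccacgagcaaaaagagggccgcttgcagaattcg
Relative to the RefSeq start, the core begins at -23 before Mt1, with further matches at 3 and 21. For Mt2 it begins at -223, -128 and -50, with 1 more match at 5. Whether these cells begin transcription at the annotated starts was not tested, so the matches are not placed within or outside the transcripts. In the RefSeq set 25.7% of windows hold such a core.

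Mt2 stood at 511, 428 and 348 CPM with FK228 and 2065, 2067 and 2272 CPM with FK228 and YF. Mt1 stood at 827, 683 and 598 CPM with FK228 and 2166, 2209 and 2718 CPM with FK228 and YF. The lowest library with YF lay above the highest without it in both genes, and within the FK228 group replicate 1 was highest and replicate 3 lowest. The log2 fold changes were 2.31 ± 0.14 for Mt2 and 1.75 ± 0.13 for Mt1 (adjusted p = 1.54e-08 and 5.4e-08), and reads may be shared in part between these similar genes. Mt3, the isoform best known from brain, rose from 1.27, 1.62 and 0.951 to 3.46, 2.06 and 2.39 CPM. Of 19 tested metallothionein and iron genes, 8 (42.1%) were higher and 6 (31.6%) lower, beside 26.6% and 26.3% of all tested genes. Among the iron genes Hfe fell by 0.55 ± 0.11.

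Oxidative and integrated stress genes split. Of 39 NRF2 and glutathione genes tested, 7 were higher and 21 lower (median -0.22). Gsta3, a glutathione transferase, went from 456, 427 and 427 to 210.5, 175 and 187 CPM (-1.20 ± 0.07). Abcc3, an exporter of conjugates, fell by 1.09 ± 0.07 and the glutathione reductase gene Gsr fell by 0.85 ± 0.06. The exception among the most changed members was Srxn1, which encodes sulfiredoxin and stood at 95.9, 95.9 and 109 CPM with FK228 and 269, 242 and 299 CPM with FK228 and YF (1.43 ± 0.08). Of 37 integrated stress response genes, 12 were higher and 9 lower, shares of 32.4% and 24.3% that lie near those over all tested genes (26.6% and 26.3%). Those that rose included Ddit3, which encodes CHOP (1.45 ± 0.06), the mitochondrial folate enzyme gene Aldh1l2 (2.10 ± 0.13), Cth of cysteine synthesis (1.31 ± 0.13) and the cystine carrier gene Slc7a11 (0.80 ± 0.12). Those that fell included the stress gene Nupr1 (-0.60 ± 0.11) and Cebpg, a bZIP factor gene (-0.47 ± 0.06).

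Replication-dependent histone genes held the largest increase of all. H3c13 (chromosome 3, 96268654 to 96269155, GRCm38.p6) had 6 counts summed over the FK228 libraries and 6371 over those with YF, a ratio of 1074 with a 95% exact interval of 493 to 2928 that covers counting error only. Its levels were 0, 0 and 0.248 CPM with FK228 and 84.3, 84.1 and 95.2 CPM with FK228 and YF. H3c11 went from 0.571, 0.121 and 0.413 to 19.5, 18.1 and 19.9 CPM, a ratio of 52.1 (interval 35.6 to 79.3). In both genes every library with YF lay far above every library without it. Groups without overlap were a condition of their place among the 15 highest genes described below. Of 57 replication-dependent histone genes present 31 were tested, and 12 of these were higher and 1, H2ac18, lower. Their shares were 38.7% and 3.23%, beside 26.6% and 26.3% of all tested genes. H3c1 and H3c8, which with H3c13 and H3c11 encode H3 proteins, rose by 2.85 ± 0.46 and 2.56 ± 0.46, from 0.163, 0.283 and 0.207 to 1.08, 1.74 and 1.97 CPM for H3c1, and H4c12 had a ratio of 2.65 (interval 1.88 to 3.79). Genes silent in all groups but those with YF could pass the filter only there, so the counts lean upwards. With a filter of 5 CPM in 3 libraries, 9 histone genes were tested and 4 of them called higher. The number lower was 0 without HDI replicate 1 or HDI+YF replicate 3, and 2 with DESeq2 or without HDI replicate 3. Histone genes are nearly identical copies, and reads may be split between them.

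The 15 highest and 15 lowest called genes were taken among those with a mean of at least 5 CPM, an assigned gene name and groups that do not overlap. Nts, which encodes the peptide neurotensin, went from 0.857, 0.769 and 0.579 to 14.3, 12.1 and 13.5 CPM, a ratio of summed counts of 18.1 (interval 13.7 to 24.2). Slpi, a secreted inhibitor of leukocyte proteases, went from 2.29, 2.63 and 1.7 to 16.3, 13.9 and 15.4 CPM (2.78 ± 0.17), and Nos1, the neuronal nitric oxide synthase gene, from 2.16, 2.71 and 2.77 to 15.5, 15 and 16.1 CPM (2.60 ± 0.15). That the groups do not overlap in these genes was a condition of their choice. The same condition applied to H3c13, H3c11, Fos and Hdac1, which also belong to the 15 highest. Bcas1, Ankrd35, Rwdd2a, Cfap52, Disp2, Stmn2, Serpina3i and Atp1b2 completed the highest, between 2.36 and 3.60. At the other end Aoc1, a diamine oxidase gene, went from 10.6, 18.8 and 14.4 to 4.46, 2.46 and 3.19 CPM (-2.12 ± 0.38). Lrrc32, whose product GARP presents latent TGF-beta at the cell surface, went from 23.7, 24.1 and 22.5 to 5.09, 7.76 and 5.87 CPM (-1.91 ± 0.13). Dhrs3, a retinal reductase gene, went from 135, 118 and 132 to 47.7, 39.2 and 40.3 CPM (-1.60 ± 0.15). In all 3 the libraries with YF were the lower ones. The bile acid transporter gene Slc10a2 (-1.49 ± 0.10), the C-reactive protein gene Crp (-1.41 ± 0.09), the glucuronosyltransferase genes Ugt2b35 and Ugt2b36 (-1.56 ± 0.20 and -1.57 ± 0.27, close paralogs), the inducible nitric oxide synthase gene Nos2 (-1.78 ± 0.23), Crb2, Slc24a3, Foxn1, Col15a1, Pamr1, Kcnj16 and Il5ra were the other genes in this set, with log2 fold changes between -1.78 and -1.41.

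**Figure D2:**
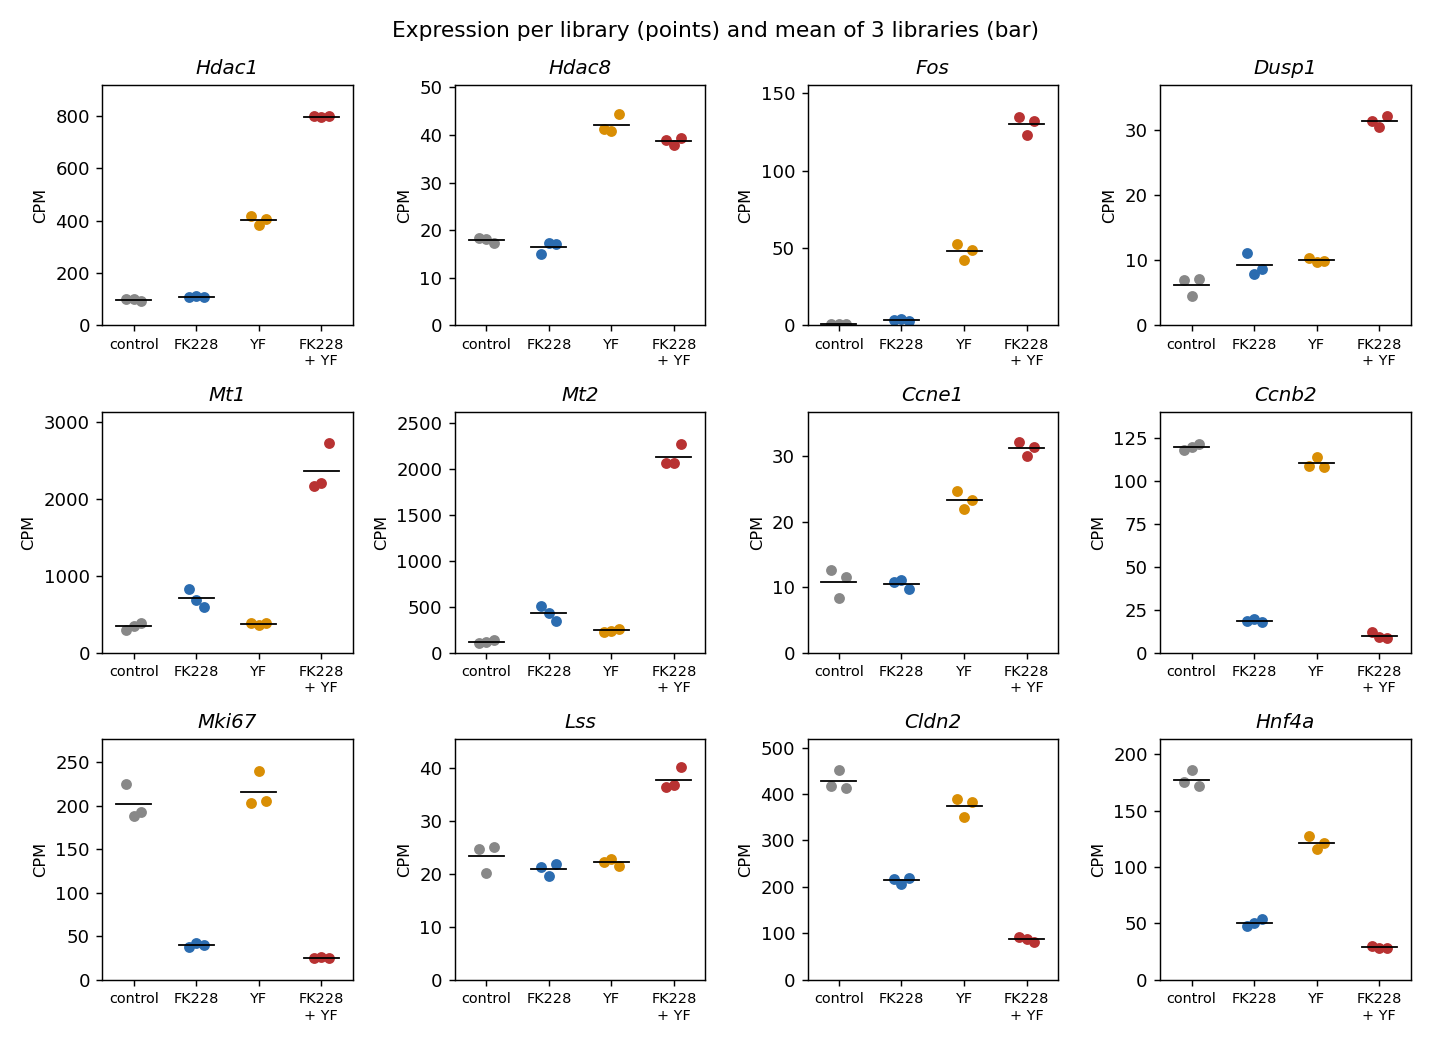
Expression in CPM (linear axes from 0) of 12 genes in the control, FK228, YF, and FK228 and YF groups, with 1 point per library and a bar at the mean of 3. In the FK228 and YF group Hdac1, Hdac8, Fos, Dusp1, Mt1, Mt2, Ccne1 and Lss lie above the FK228 group without overlap, and Ccnb2, Mki67, Cldn2 and Hnf4a lie below it.

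Called mitosis genes were mostly lower and called replication genes mostly higher. Of 55 mitosis genes, 31 were lower and 3 higher (median -0.33). Of 49 replication and S phase genes, 19 were higher and 2 lower (median 0.15). The share lower was 56.4% for mitosis and 4.08% for replication genes, beside 26.3% of all tested genes. The share higher was 5.45% and 38.8%, beside 26.6%. Ccnb2, a mitotic cyclin, stood at 18.3, 19.5 and 18 CPM with FK228 and 12, 9.29 and 8.52 CPM with FK228 and YF (-0.91 ± 0.09). Every library with YF lay below those without. Aspm of the spindle pole, Nusap1 of spindle microtubules and Ndc80 of the kinetochore fell by 0.79 ± 0.16, 0.75 ± 0.12 and 0.73 ± 0.19. Mki67, the proliferation marker, went from 37.1, 41.8 and 39.4 to 25, 26.5 and 25.2 CPM (-0.62 ± 0.08). Mki67 averaged 201 ± 20.2 CPM in control and 39.4 ± 2.35 CPM with FK228 alone, and Ccnb2 120.1 ± 1.76 and 18.6 ± 0.803 CPM (n = 3 each). The mitosis genes that rose were Cenpn, Spc25 and Ncaph, by 0.43, 0.38 and 0.36.

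In the replication list the cyclin E genes, which drive entry into S phase, moved most. Ccne1 stood at 10.8, 11 and 9.72 CPM with FK228 and 32.2, 30.1 and 31.4 CPM with FK228 and YF (1.57 ± 0.11) and Ccne2 at 2.9, 3.36 and 2.98 CPM with FK228 and 6.71, 7.11 and 8.69 CPM with FK228 and YF (1.28 ± 0.22). The groups were separate in both genes. The primase subunit gene Prim2 rose by 0.86 ± 0.09 and Pcna, the polymerase clamp, by 0.31 ± 0.10, while Mcm2 of the replicative helicase was not called (0.09 ± 0.09, adjusted p = 0.404). The genes that fell were Tk1 and Cdt1 (-0.44 and -0.37). Fitted to the 6 compared libraries alone, 5 replication genes were lower, and 4 were with DESeq2 or without control replicate 1, control replicate 2, HDI replicate 3 or HDI+YF replicate 1. Without FK228 the mitosis list had 2 genes higher and 0 lower and the replication list 6 and 0, beside 18% and 14.6% of all tested genes. At an unadjusted p of 0.05 edgeR had 0 mitosis genes and 1 replication gene lower there, DESeq2 called 0 and 0 and limma-voom 0 and 1. The difference of the YF effect with and without FK228 was called lower in 24 and higher in 2 mitosis genes, and higher in 13 and lower in 1 replication genes, beside 15.3% lower and 11.1% higher over all genes. Of 35 p53 targets and cell cycle inhibitors, 13 (37.1%) were higher and 9 (25.7%) lower with FK228. Over all tested genes 26.6% were higher and 26.3% lower, so the share lower was near that of all genes. The stress kinase gene Plk3 changed by 1.83 ± 0.16, Tigar by 0.79 ± 0.08, the inhibitor gene Cdkn2d by 0.67 ± 0.08 and Gadd45b by -0.99 ± 0.09.

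Most genes of cholesterol synthesis and uptake rose. Of 28 tested, 18 were higher and 4 lower (median 0.35), and without FK228 2 were higher and 5 lower. Among all tested genes 26.6% were higher and 26.3% lower with FK228, and 18% and 14.6% without it. The difference was called higher in 16 genes, beside 11.1% of all tested genes, and lower in 0, which was 0 also at an unadjusted p of 0.05 in edgeR, in DESeq2 and in limma-voom. Lss, which closes the sterol ring, stood at 21.3, 19.7 and 21.8 CPM with FK228 and 36.4, 36.8 and 40.3 CPM with FK228 and YF (0.85 ± 0.08). Mvk, the mevalonate kinase gene, went from 15.5, 11.2 and 15.3 to 27.5, 26 and 25.3 CPM (0.91 ± 0.11), and Hsd17b7 of a late step from 10.7, 10.9 and 12.3 to 20.9, 20.4 and 22.5 CPM (0.92 ± 0.10). All 3 were higher in every library with YF than in any without. The largest change in the list was in Abca1, which exports cholesterol and so acts against the list's name, from 0.979, 1.82 and 2.44 to 5.8, 5.49 and 5.92 CPM (1.71 ± 0.23). Hmgcs1 of an early step was not called (0.014 ± 0.07, adjusted p = 0.89). Those that fell included Stard4, Srebf2 and Ebp.

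Fatty acid synthesis genes did not share a direction, with 8 higher and 8 lower of 21. These shares of 38.1% each were above the 26.6% and 26.3% of all tested genes. The number higher was 5 without the count filter, with DESeq2, or without HDI replicate 1, HDI replicate 2, HDI+YF replicate 2 or HDI+YF replicate 3. The desaturase gene Fads2 fell from 209, 207 and 219 to 115, 123 and 122 CPM (-0.82 ± 0.05) and Me1, which supplies NADPH, from 1327, 1292 and 1399.5 to 789, 782 and 833 CPM (-0.74 ± 0.06). Both were lower in each library with YF. Of 32 fatty acid oxidation genes, 8 (25%) were higher and 9 (28.1%) lower, near the 26.6% and 26.3% of all tested genes. Hadha and Hadhb, the subunits of the mitochondrial trifunctional protein, rose by 0.56 ± 0.06 and 0.62 ± 0.05, and the thioesterase genes Acot1 and Acot2, close paralogs, fell by 0.55 ± 0.08 and 0.64 ± 0.21. Among 21 genes of fatty acid uptake and storage 6 were higher and 6 lower, shares of 28.6% each that also lie near those of all genes. There Fabp4, a fatty acid binding protein gene, went from 3.35, 1.9 and 2.44 to 12.3, 10.4 and 11.4 CPM (2.15 ± 0.16), and the lipid droplet gene Cideb fell by 1.21 ± 0.12. Glycolysis and hypoxia genes were lower in 20 of 39 (51.3%) and higher in 6 (15.4%). The liver isozyme genes Pklr (-0.93 ± 0.07) and Pfkl (-0.78 ± 0.11) were lower and the regulatory kinase gene Pfkfb4 higher (1.22 ± 0.10). Pcx, which makes oxaloacetate from pyruvate, rose from 28.5, 26.3 and 30.9 to 88.2, 89 and 94.9 CPM (1.67 ± 0.08), an increase without overlap between groups. Its list of 15 gluconeogenesis, urea cycle and glutamine genes had 5 higher and 5 lower.

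Called ribosomal protein genes were mostly higher for mitochondrial and lower for cytosolic ribosomes, each by a small amount. Of 77 mitochondrial ribosomal protein genes, 40 (51.9%) were higher and 9 (11.7%) lower (median 0.17), beside 26.6% and 26.3% of all tested genes. The difference from the YF effect without FK228 was called higher in 33 and lower in 1, beside 11.1% and 15.3% of all tested genes. Mrps11 went from 51.9, 50.2 and 40.3 to 77.9, 76.1 and 78.9 CPM (0.71 ± 0.08), and Mrps22, Mrpl13 and Mrps18c rose by 0.60, 0.59 and 0.58. The number lower was 5 without HDI replicate 1, HDI+YF replicate 1 or HDI+YF replicate 3, and 15 without HDI replicate 3. Of 79 cytosolic ribosomal protein genes, 42 (53.2%) were lower and none higher (median -0.21). Rpl3 went from 1744, 1617 and 1585 to 1204, 1149 and 1164 CPM (-0.49 ± 0.06), and Rpl10a and Rps4x fell by 0.48 ± 0.07 and 0.42 ± 0.07. Higher members numbered 0 at an unadjusted p of 0.05 in edgeR and 0 in DESeq2 and limma-voom. The number lower depended on single libraries: 23 genes were lower without HDI replicate 1 and 69 without HDI replicate 3. Without FK228, 22 (27.8%) were lower and none higher, beside 14.6% and 18% of all tested genes. For the difference edgeR called none of the 79 genes, with 2 lower and 0 higher at an unadjusted p of 0.05. DESeq2 called 2 lower and limma-voom 0. Of 74 nuclear-encoded respiratory chain genes, 23 (31.1%) were higher, not far above the 26.6% of all tested genes, and 6 (8.11%) lower. Here too single libraries counted, with 36 higher and 3 lower without HDI replicate 1 and 15 higher without HDI replicate 3 or HDI+YF replicate 1. The complex I gene Ndufv1 rose from 241, 212 and 231 to 390.1, 367 and 367 CPM (0.72 ± 0.06).

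Over the hepatocyte regulators the calls went downwards. Of 23 tested hepatocyte transcription factor genes, 13 (56.5%) were lower and none higher (median -0.51), and 1 was called higher without HDI replicate 3. Among all tested genes 26.3% were lower and 26.6% higher. No member was higher at an unadjusted p of 0.05 in edgeR, and DESeq2 and limma-voom called 0 higher. Hnf4a, a central regulator of the hepatocyte programme, stood at 47.5, 50.4 and 54.1 CPM with FK228 and 30.1, 27.9 and 28.1 CPM with FK228 and YF (-0.82 ± 0.07). Every library with YF lay below those without it. Nfib and the bile-related nuclear receptor gene Nr5a2 fell by 0.98 ± 0.16 and 0.81 ± 0.17. Of 10 tested hepatocyte markers 3 (30%) were lower, near the 26.3% of all tested genes, and none higher. In this list 1 was higher at an unadjusted p of 0.05, with limma-voom or without HDI replicate 2. The filter of 5 CPM left only 3 of these markers tested, with 2 lower. Of 10 cholangiocyte and progenitor markers 6 (60%) were lower and none higher in edgeR, DESeq2 or limma-voom. Without FK228 12 transcription factor genes were lower and 2 higher, beside 14.6% and 18% of all tested genes. The difference was called lower in 7, beside 15.3% of all tested genes. In bulk RNA, fewer cells of a type and less RNA per cell cannot be told apart.

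Genes of liver products followed in part. Of 34 hepatocyte secreted protein genes, 14 were lower and 2 higher, beside 26.3% lower and 26.6% higher among all tested genes. Those higher were Serpina3n (1.41 ± 0.20) and Fetub (1.17 ± 0.27), or 1 of 18 tested with the filter of 5 CPM. Serpina3n has a close paralog in Serpina3i. The antitrypsin gene Serpina1b had 204 summed counts with FK228 and 58 with YF as well, a ratio of 0.288 (interval 0.211 to 0.387), and its call was lost with limma-voom (adjusted p = 0.0834). Apob, which encodes the protein of lipoproteins, went from 205, 239 and 265 to 141, 146 and 153 CPM (-0.69 ± 0.07). All YF libraries were below the others for Apob. Of 15 complement genes, 7 were lower and 3 higher, with Masp1 of the lectin pathway at -1.05 ± 0.09 and the protease gene C1s1 at 1.20 ± 0.14. Cytochrome P450 genes were lower in 13 of 29 and higher in 2, or lower in 8 of 16 tested with the filter of 5 CPM. Cyp46a1, a cholesterol hydroxylase gene known from neurons, went from 4, 3.36 and 3.51 to 12.9, 14 and 14.8 CPM (1.94 ± 0.14), and Cyp2s1 fell by 0.95 ± 0.07. The other P450 gene to rise was Cyp51 of sterol synthesis.

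Inflammatory genes were mostly lower. Of 18 chemokine genes, 11 were lower and none higher (median -0.59), with 1 higher when HDI+YF replicate 2 was left out. In edgeR 0 were higher at an unadjusted p of 0.05, and DESeq2 and limma-voom also gave 0. Cxcl5, a neutrophil attractant and the most abundant of those named, stood at 3839.8, 3719 and 3493 CPM with FK228 and 2076, 1998 and 1729.9 CPM with FK228 and YF (-0.93 ± 0.08). Ccl20, which attracts cells carrying CCR6, stood at 238, 212 and 176 CPM with FK228 and 86.4, 78.1 and 72.6 CPM with FK228 and YF (-1.40 ± 0.14). The groups did not overlap in either gene. Of 34 NF-kB and inflammatory genes, 19 were lower and 5 higher (median -0.46). Nos2, the inducible nitric oxide synthase gene, went from 107, 119 and 109 to 35.2, 27.2 and 35.2 CPM (-1.78 ± 0.23), and the adhesion gene Vcam1, the ubiquitin ligase gene Birc3 and the cytokine gene Csf2 fell by 1.17, 1.01 and 0.88 on the log2 scale. The genes that rose were Il6, Il33, Ptgs2, Cd40 and Nfkbib. Ptgs2, which encodes COX-2, went from 55.1, 57.3 and 60.2 to 97.6, 88.8 and 109.7 CPM, and Il33, an alarmin gene, from 72.9, 73 and 72.4 to 125, 139 and 116 CPM. Both moved against most of the list. The YF effect was lower with FK228 than without in 16 of the 34 NF-kB genes, beside 15.3% of all tested genes, and higher in 0, or 2 at an unadjusted p of 0.05 in edgeR and 0 by DESeq2 and limma-voom. Of 44 interferon stimulated genes, 7 were higher and 12 lower, and 7 were lower without HDI replicate 2. The share lower, 27.3%, lies near the 26.3% of all tested genes. The antiviral gene Rsad2 rose by 1.19 ± 0.10, while Ifit3, its neighbour Ifit3b (a near copy) and the factor gene Irf1 fell by 0.93 ± 0.25, 0.86 ± 0.13 and 0.73 ± 0.07.

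**Figure D3:**
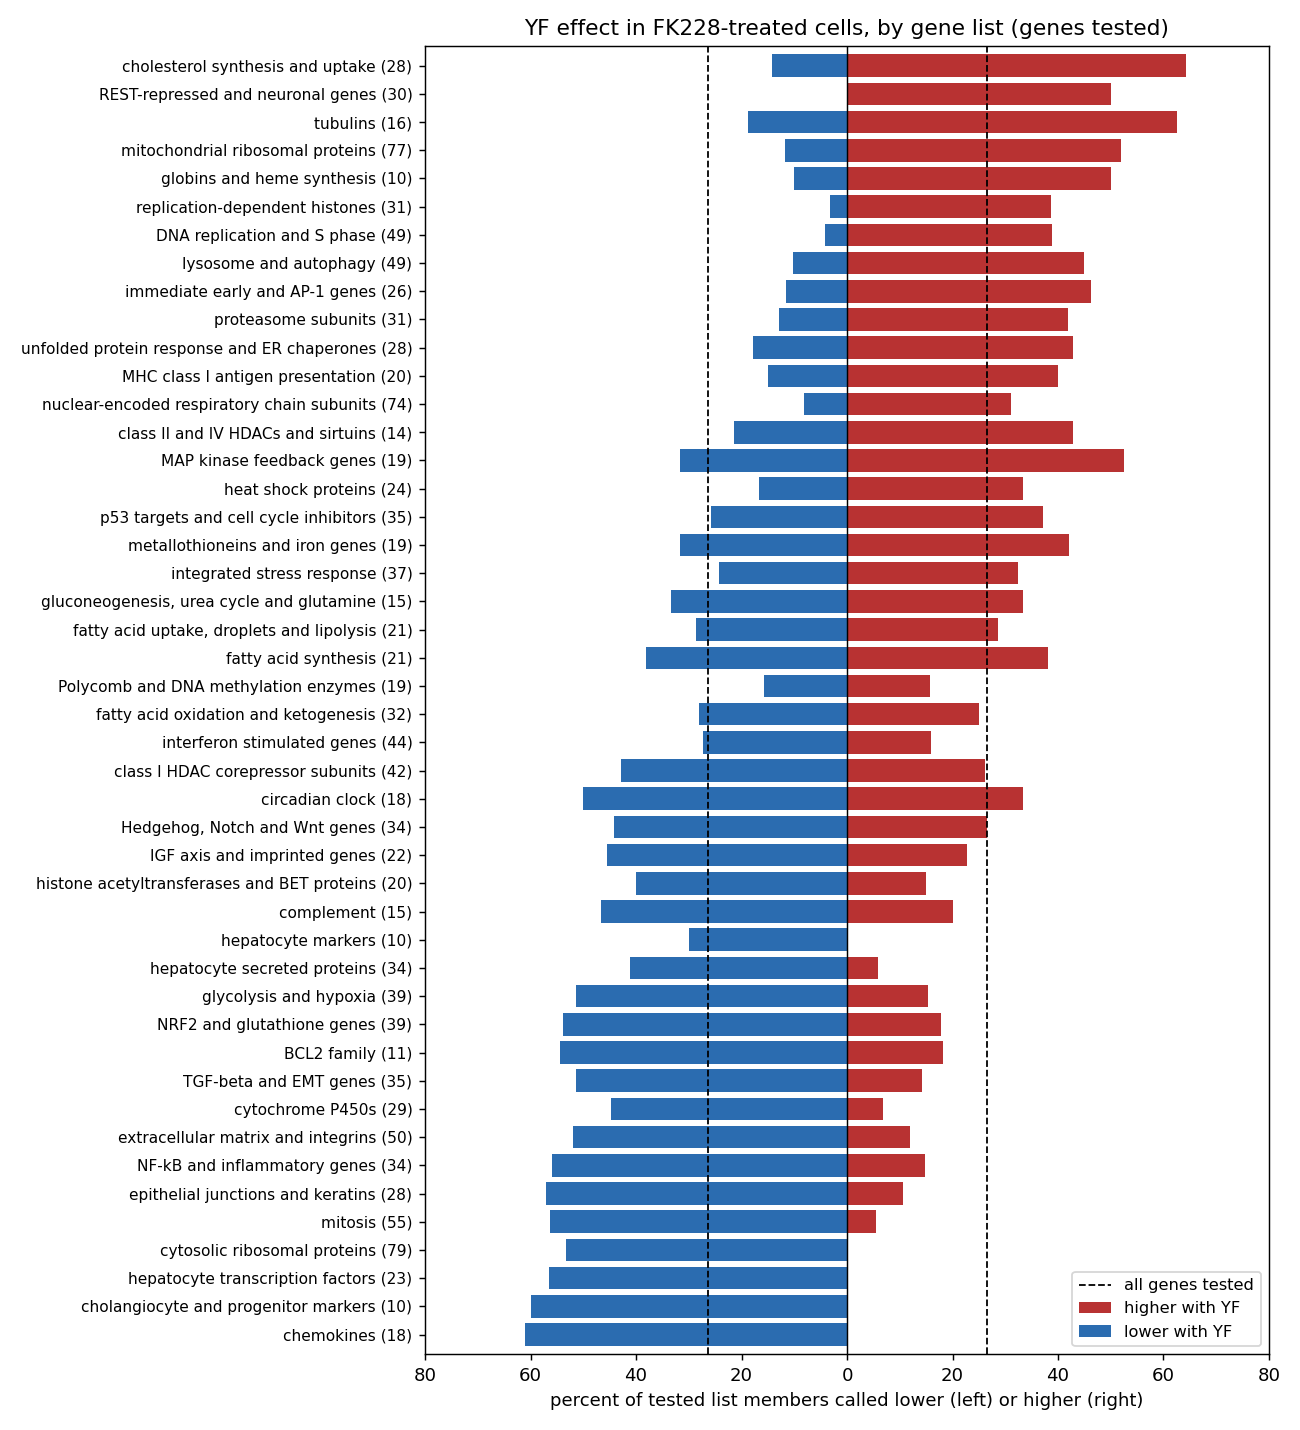
Percent of the tested members (number in brackets) of 46 gene lists called lower (blue, left) or higher (red, right) with YF in FK228-treated cells; dashed lines mark all 13346 genes tested (26.3% lower and 26.6% higher). Cholesterol, neuronal, tubulin and mitochondrial ribosomal lists lie at the top, and chemokines, cholangiocyte markers, hepatocyte transcription factors and cytosolic ribosomal proteins at the bottom.

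Epithelial and matrix genes were more often lower than higher. Of 28 junction and keratin genes, 16 were lower and 3 higher (median -0.28), beside 26.3% and 26.6% of all tested genes. Cldn2, the gene of a pore-forming claudin, stood at 217, 206 and 219 CPM with FK228 and 92.1, 88.1 and 82.1 CPM with FK228 and YF (-1.29 ± 0.06). Krt7 went from 79.7, 83 and 74.1 to 30.8, 41 and 29.9 CPM (-1.22 ± 0.10), Krt8 from 1145, 1118 and 1056 to 623, 768 and 604 CPM (-0.73 ± 0.08), and the gap junction gene Gjb1 fell by 1.01 ± 0.12. No library with YF reached the level of a library without it in these genes. The genes that rose were Cldn4, Gja1 and Krt20 (2.08, 0.42 and 0.26). Among 50 matrix and integrin genes, 26 were lower and 6 higher, and the difference from the YF effect without FK228 was called lower in 24, beside 15.3% of all tested genes, and higher in 0, beside 11.1%, or 1 at an unadjusted p of 0.05 in edgeR and 0 by DESeq2 and limma-voom. The integrin genes Itgb6 and Itga1 fell by 0.99 ± 0.11 and 0.88 ± 0.10, and Mmp13, a collagenase gene, rose by 1.60 ± 0.19.

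TGF-beta genes were lower in 18 of 35 (51.4%) and higher in 5 (14.3%), beside 26.3% lower and 26.6% higher among all tested genes. The number higher was 3 with DESeq2 or without HDI replicate 2, HDI+YF replicate 1 or HDI+YF replicate 3. Tgfbr1, the type I receptor gene, stood at 120.3, 137 and 145 CPM with FK228 and 58.4, 53.7 and 50.3 CPM with FK228 and YF (-1.31 ± 0.08). The ligand gene Tgfb3 stood at 56.8, 65.2 and 62.6 CPM with FK228 and 28.3, 30.5 and 24 CPM with FK228 and YF (-1.16 ± 0.08). Both were lower in every library with YF, and Tgfb3 rose with YF where FK228 was absent (0.37 ± 0.07), a difference of -1.53 ± 0.11 (adjusted p = 7.18e-09). The activin subunit gene Inhbb and the target gene Id2 fell by 0.84 ± 0.09 and 0.79 ± 0.06, while Snai1, Snai2, Tgfb1, Acta2 and Id3 rose. Of 34 Hedgehog, Notch and Wnt genes, 9 were higher and 15 lower. The share higher, 26.5%, was near the 26.6% of all tested genes, and the share lower was 44.1%. Smo, the Hedgehog signal transducer, changed by -0.82 ± 0.06, the Notch ligand gene Jag1 by -0.76 ± 0.07 and Wnt4 by -0.85 ± 0.09. Of 22 IGF axis and imprinted genes, 5 were higher and 10 lower, or 3 higher of 14 tested with the filter of 5 CPM. The list was led by the imprinted retrotransposon-derived gene Peg10, which went from 5.06, 6.72 and 6.78 to 21, 24 and 26.5 CPM (1.94 ± 0.14). For Peg10 the lowest library with YF was above the highest without.

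Many neuronal genes of the kind that the repressor REST silences outside neurons rose. Of 50 such genes present 30 were tested, and 15 (50%) were higher and none lower (median 0.32). Among all tested genes 26.6% were higher and 26.3% lower. Lower members numbered 0 also at an unadjusted p of 0.05 in edgeR and by DESeq2 and limma-voom. Ndrg4 stood at 8.65, 9.27 and 11.3 CPM with FK228 and 38.6, 38.8 and 40.0 CPM with FK228 and YF (2.01 ± 0.12). Stmn2, a regulator of microtubules in axons, stood at 3.14, 2.39 and 2.07 CPM with FK228 and 16.5, 15.2 and 14.6 CPM with FK228 and YF (2.60 ± 0.17). The groups lay apart in both, which for Stmn2 was a condition of its place among the 15 highest genes. The presynaptic gene Nrxn2 and the sodium channel subunit gene Scn3b rose by 1.68 ± 0.17 and 1.67 ± 0.27. As with the histones, members silent with FK228 alone entered the test only if another group expressed them, so the count leans upwards. Of 16 tubulin genes, 10 (62.5%) were higher and 3 (18.8%) lower. Tubb2a went from 87.6, 84.6 and 83.1 to 174, 181 and 174 CPM (1.05 ± 0.06).

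Chromatin regulators changed modestly. Of 42 subunits of class I HDAC complexes, 18 (42.9%) were lower and 11 (26.2%) higher, the latter 6 without HDI replicate 2. Among all tested genes 26.3% were lower and 26.6% higher, so the share higher was near that of all genes. The NuRD subunit gene Mta3 went from 36.1, 34.9 and 32.5 to 17.8, 18.2 and 17.7 CPM (-0.95 ± 0.08), and Tbl1xr1 of the NCoR complex from 32.4, 31.8 and 32.2 to 18.5, 20.7 and 19.3 CPM (-0.72 ± 0.12). Sap130 of the Sin3 complex moved the other way, from 49.1, 56.1 and 60.9 to 91.5, 92.1 and 94 CPM (0.74 ± 0.07). All 3 separated the groups. Acetyltransferase and BET genes were lower in 8 of 20 and higher in 3, with 5 lower without HDI replicate 3 or HDI+YF replicate 1, and Kat2b fell by 0.69 ± 0.10. Among 14 other deacetylase genes, 6 were higher and 3 lower. Hdac6, a cytoplasmic tubulin deacetylase gene, rose from 85.3, 88.9 and 88.3 to 148, 162 and 161 CPM (0.84 ± 0.05), and the class IIa gene Hdac7 fell from 85.1, 80.6 and 82.6 to 48.5, 49.9 and 39.9 CPM (-0.84 ± 0.07). Of 19 Polycomb and DNA methylation genes, 3 were higher and 3 lower, and without HDI replicate 1 the number higher was 1. These shares of 15.8% each were below those of all tested genes.

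The YF effect with FK228 was then set beside that without it, a pair of comparisons that share no library. Without FK228 YF gave 4357 calls (32.6%), 2405 higher and 1952 lower, of which 749 (5.61%) and 111 (0.832%) were at least 2-fold. Of the genes higher with FK228, 1418 were also higher without it, which is 40% of the 3549 and 59% of the 2405. Of those lower, 1376 were lower in both, 39.2% of the 3514 and 70.5% of the 1952. Opposite calls were fewer, 171 genes lower with FK228 and higher without and 62 the other way. The log2 fold changes correlated with r = 0.563 across the 13346 genes, a description only, because genes are not independent replicates. A test of the difference between the effects called 3531 genes (26.5%), 1484 higher with FK228 and 2047 lower. At least 2-fold differences were called in 79 genes (0.592%) upwards and 452 (3.39%) downwards.

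**Figure D4:**
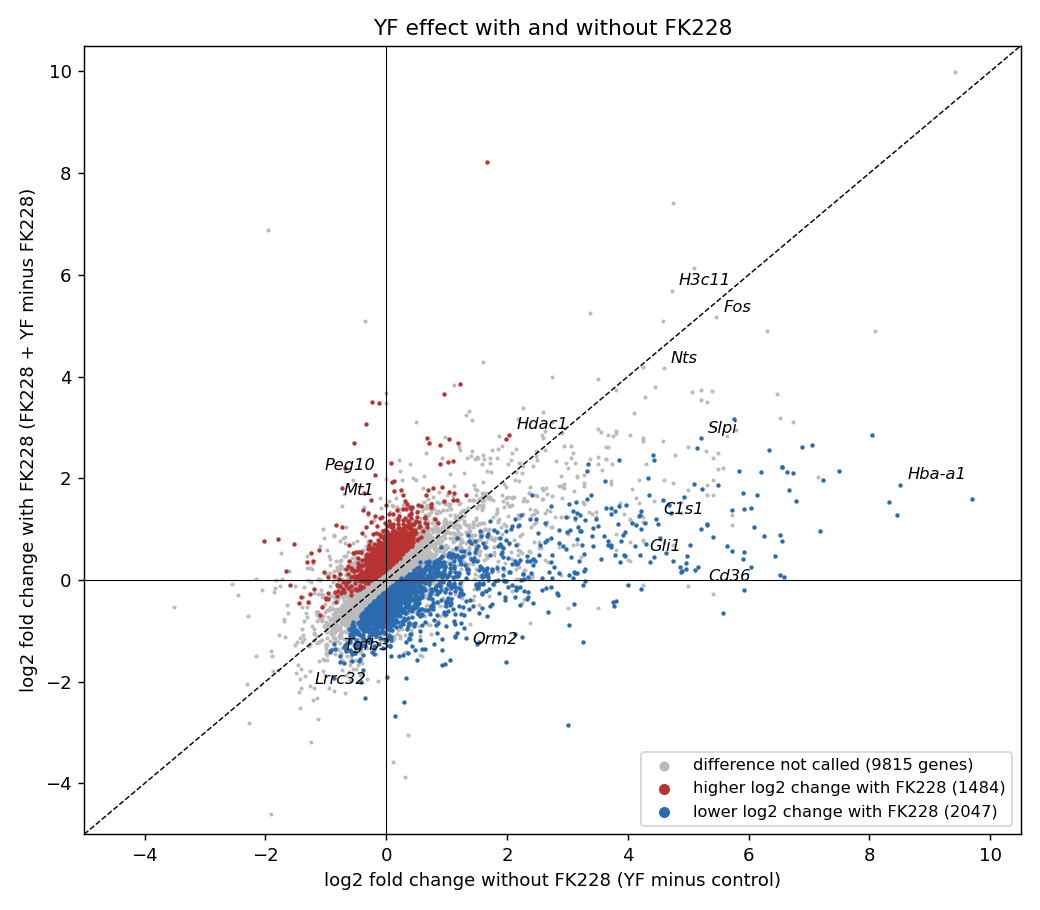
Log2 fold change of YF without FK228 (x axis) and with it (y axis) for 13346 genes, with equality dashed; red (1484 genes) and blue (2047 genes) mark a difference called higher and lower with FK228. A band of blue points such as Hba-a1, Cd36 and Gli1 lies along the right of the plot, and Fos and H3c11 lie near the dashed line.

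Fos rose in both settings, by 5.46 ± 0.13 without FK228 and 5.16 ± 0.10 with it, and the difference of -0.29 ± 0.20 (adjusted p = 0.312) was not called. The 8 genes with the highest differences, among those with a mean of at least 5 CPM, included Mt1. Mt1 stood at 291, 347 and 391 CPM in control and 383, 357 and 385 CPM with YF alone (0.13 ± 0.12, adjusted p = 0.475), and its difference was 1.62 ± 0.18. The groups overlapped there, while with FK228 they did not. Mxd1, which encodes a partner of MAX that opposes MYC, went from 5.75, 6.23 and 7.36 to 17.1, 19.5 and 20.9 CPM with FK228 and from 5.66, 7.86 and 8.24 to 6.84, 5.87 and 5.64 CPM without it. Efnb2, an ephrin gene, went from 9.14, 8.25 and 8.1 to 27.5, 30.4 and 29.5 CPM with FK228 and from 14.7, 16.9 and 17 to 19, 18.8 and 19.9 CPM without. Peg10, Zfp36, Rabl2, Mt2 and Mlf1 complete these 8, with differences from 1.23 to 1.82.

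The 8 genes with the lowest differences were below 1 CPM in every control library. Cd36, whose product takes up fatty acids, stood at 0.116, 0.0385 and 0 CPM in control, 1.98, 1.87 and 2.21 CPM with YF and 13.4, 14.8 and 15.2 CPM with FK228. With both it was at 17.6, 15.9 and 18.5 CPM (0.26 ± 0.11, adjusted p = 0.056). The YF libraries lay above control, while with FK228 the change was small and not called. It was called with the 5 CPM filter, with limma-voom, in the compared libraries alone, and without control replicate 1 or control replicate 3. Gli1, a transcription factor gene of Hedgehog signalling, stood at 0.232, 0.231 and 0.0778 CPM in control, 7.31, 5.07 and 4.91 with YF, 14, 12.9 and 13.4 with FK228 and 16.1, 17.2 and 17.1 with both. The call of Gli1 with FK228 (0.32 ± 0.12) was lost when any HDI library, HDI+YF replicate 2 or HDI+YF replicate 3 was left out. Hba-a1, an alpha globin gene with a near-identical copy, reached 40.8, 33.1 and 28.8 CPM with FK228 and 138, 104 and 136 CPM with both (1.87 ± 0.20). Ndrg2, Serpinb1a, Apol9a and C1s1 were higher with both than with FK228 alone, and Cntnap2 was not called (-0.027 ± 0.21, adjusted p = 0.928). In the 8 genes the mean level in control was between 0.0515 and 0.684 CPM.

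Some genes moved in opposite directions. Orm1 and Orm2, close paralogs that encode acute phase proteins, fell by 0.67 ± 0.07 and 0.94 ± 0.15 with FK228 and rose by 0.99 ± 0.07 and 1.28 ± 0.16 without it. Orm1 went from 24.8, 24.4 and 25.9 to 45.8, 53.6 and 49.5 CPM without FK228 and from 58.1, 61.5 and 57.3 to 38.2, 39 and 33.8 CPM with it. The groups did not overlap in either setting. Vnn3, Havcr1 (a marker of epithelial injury), Btn1a1 and Gabra3 behaved in the same way. In the other direction Padi2, a citrullinating enzyme gene, rose from 111, 121 and 139.7 to 168, 160.5 and 192 CPM with FK228 and fell from 153 ± 10.3 to 122 ± 16.8 CPM without it (n = 3 each), and Tbck, Mapk15, Frat2, Acy3 and Ccdc85c did likewise. The call of Mapk15 with FK228 was lost without HDI replicate 2 or HDI+YF replicate 3, and that of Frat2 without the count filter, without any HDI library or without HDI+YF replicate 2.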

How the data were processed

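Total RNA from 12 AML12 libraries, 3 in each of 4 groups, was sequenced as 100-base paired reads on a BGISEQ instrument, per the labels' protocols. Tools named for the deposit are RSEM 1.2.12, HISAT2 2.0.4, DESeq2 1.4.5 and Bowtie2 2.2.5, with build GRCm38.p6, per the submitters' processing notes, which give no role or order. The authors deposited estimated counts per gene, 16.6% of them not whole, and TPM, which are normalised for length and depth. TPM served only to compare HDAC levels. A further 24 per-sample columns were not used.

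Estimated counts were rounded, filtered with edgeR's filterByExpr over the 4 groups, scaled by TMM and fitted to all 12 libraries with edgeR 4.0.16 (robust quasi-likelihood test, R 4.3.3), with Benjamini-Hochberg adjustment over 13346 genes and a threshold of 0.05. Values after ± are the standard error of a log2 fold change or the SD of CPM. Alternatives were RLE scaling, no filter, at least 5 CPM in 3 libraries, DESeq2 1.42.0, limma-voom (limma 3.58.1), a replicate block, the compared libraries alone and leaving out each library. In simulated counts for this comparison (13086 genes), 84.7% of genes changed by 0.5 on the log2 scale were called, 95.9% at 1 and 100% at 2. There were 14 false calls among 202. Only 59, 74 and 67 genes were changed, all above 1 CPM with FK228, and counts were drawn with the fitted spread. The simulation therefore does not describe genes below that level, or data in which 7063 genes are called.

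Genes were named by rules: the 15 highest and 15 lowest called genes, the class I HDACs, up to 4 called members per list with the largest changes, the 8 highest and 8 lowest differences, and up to 6 genes called in opposite directions each way. Genes outside these rules, such as Mki67, Jun, Myc, Pcna, Nupr1 and Cebpg, were singled out after their values were seen, and so were the members that moved against their list. The comparison and the 50 lists were chosen with earlier results of these data known. Some genes that the rules select are not reported here. RefSeq (GRCm38.p6) matched 18980 of 19037 genes by gene ID.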

Additional observations from a re-analysis of the deposited data

Results flagged for a closer look

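The effect of YF differed with and without FK228 by a test of the difference itself in 3531 genes, many of the genes named above among them. Given here are 30 of these, the class I HDAC genes so called, the genes with the highest and lowest differences, and those called in opposite directions. The values are the log2 fold change of YF with FK228 minus that without. It was higher with FK228 in Hdac1 (0.816), Hdac3 (0.239), Mt1 (1.62), Mt2 (1.29), Mxd1 (1.82), Peg10 (1.82), Zfp36 (1.33), Rabl2 (1.32), Mlf1 (1.23) and Efnb2 (1.53). In Acy3 (0.703), Ccdc85c (0.722), Frat2 (0.801), Mapk15 (0.897), Padi2 (0.81) and Tbck (1.01) the effect was called upwards with FK228 and downwards without. The reverse held in Btn1a1 (-2.37), Gabra3 (-1.54), Havcr1 (-1.7), Orm1 (-1.66), Orm2 (-2.22) and Vnn3 (-2.0). It was lower with FK228 in Apol9a (-3.29), C1s1 (-3.28), Cd36 (-4.9), Cntnap2 (-3.32), Gli1 (-4.63), Hba-a1 (-6.63), Ndrg2 (-3.47) and Serpinb1a (-3.45), whose mean control levels were between 0.0515 and 0.684 CPM.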

How the results depend on the processing

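The count of 7063 called genes ranged from 6327 to 7174 under the alternatives other than leaving out a library and from 6256 to 7384 when each library was left out. The corresponding leave-one-out ranges were 3024 to 3700 genes higher, 3090 to 3684 lower, 3380 to 4748 for YF without FK228 and 2843 to 3691 for the difference. Of 4402 values of 233 named genes under these alternatives, 4327 kept direction and side of the threshold, 70 were no longer called, 5 became called and 0 changed direction. Of 1900 list counts, 54 moved by over 1.5 times, and the list counts were added after seeing the data. The cause was not tested.

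Same-numbered HDI and HDI+YF libraries correlated in their deviations with r = 0.123, 0.0141 and 0.0281 over 11352 genes, and 2 of the 3 HDI libraries correlated best with another number, so the numbers were not taken as pairs. With the replicate block 6800 genes were called (3412 higher, 3388 lower), 4056 for YF without FK228 and 3144 for the difference. Genes at low counts and changes of 0.5 or less on the log2 scale are the ones depth and 3 libraries limit most.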

Other observations

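Clock genes split with YF in FK228-treated cells, with 6 higher and 9 lower of 18, beside 26.6% higher and 26.3% lower among all tested genes. The repressor gene Cry1 stood at 7.35, 7.73 and 8.27 CPM with FK228 and 21.1, 21.3 and 21.1 CPM with FK228 and YF (1.44 ± 0.12), and its paralog Cry2 rose by 0.90 ± 0.11. Dbp, an output gene of the clock, went from 18.2, 18.1 and 16.7 to 7.01, 4.85 and 8.73 CPM (-1.37 ± 0.26). The groups were separate in all 3 genes. In the list of 49 genes for lysosomes and autophagy, 22 rose and 5 fell, with Cd68, a lysosomal membrane protein gene also used as a macrophage marker, at 1.13 ± 0.10, Gabarapl2 at 0.51 ± 0.06, and Cd63 and Naglu at -0.52 ± 0.07 and -0.52 ± 0.07. Without FK228 20 were higher and 1 lower, beside 18% and 14.6% of all tested genes. Of 31 proteasome subunit genes, 13 were higher and 4 lower, with Psmd13 at 0.63 ± 0.05.

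Of 20 antigen presentation genes, 8 were higher and 3 lower. For this and the lists below, the shares over all tested genes were 26.6% higher and 26.3% lower. The immunoproteasome gene Psmb9 and the regulator gene Nlrc5 rose by 1.34 ± 0.19 and 0.86 ± 0.16, and the peptidase gene Erap1 fell by 0.86 ± 0.12. Of 28 unfolded protein response genes, 12 were higher and 5 lower, and those lower included Herpud1 (-0.72 ± 0.06) and Xbp1 (-0.60 ± 0.06), which act in that response. Of 11 BCL2 family genes, 6 were lower and 2 higher, and the number higher was 1 without HDI replicate 2 or without the count filter. Among them Bmf, which promotes apoptosis, fell by 0.97 ± 0.09, and Bcl2l1 and Mcl1, which oppose it, fell by 0.58 ± 0.06 and 0.42 ± 0.06. Bcl2l11, which encodes the proapoptotic BIM, rose by 0.45 ± 0.10. Of 10 globin and heme genes, 5 were higher and 1 lower, or 3 higher without the count filter, with Uros and Urod of heme synthesis at 1.12 ± 0.06 and 0.56 ± 0.06. Of 24 heat shock genes, 8 were higher and 4 lower, and Cryab, a small heat shock protein gene, fell by 0.75 ± 0.08.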
